A study of Mus musculus with 6 samples.

Results

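The nuclear genes of the mitochondrial respiratory chain and the ATP synthase were followed in livers of newborn mice whose mothers had eaten diets with different oils. The set holds every gene on the array whose symbol begins with Nduf, Uqcr, Cox4 to Cox8 or Atp5, or is Sdha, Sdhb, Sdhc or Sdhd, and that has a probe annotated to that gene alone. This gave 89 of 19938 genes. They fall into 34 subunits and 7 assembly factors of complex I, 4 subunits of complex II, 8 of complex III, 19 of complex IV and 17 of the ATP synthase. Each gene was represented by its brightest probe. The set need not hold every subunit, and genes without such a probe were not analysed here.

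The mice were C57Bl6/J. Females received 1 of 3 isocaloric diets with 6 g% oil, soybean oil in the control diet, flaxseed oil in the diet rich in alpha-linolenic acid (ALA, an omega-3 fatty acid, 31.6%), and coconut oil in the diet rich in saturated fatty acids (SFA, 48.51%). Males ate regular chow and shared the diet of the females during mating, so the fathers were exposed for that time too. Livers were taken within 1 day of birth, RNA from 3 livers was pooled, and 2 pools per diet were each hybridised to 1 Affymetrix array, 6 arrays in all. The labels do not say whether the pools of a diet came from different litters, so p-values measure only the spread between these pools, which may be technical. The labels give no sex for the pups.

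The respiratory chain passes electrons from NADH and succinate, through complexes I and II, ubiquinone, complex III and cytochrome c, to oxygen at complex IV. Complexes I, III and IV pump protons out of the matrix, and the ATP synthase uses the returning protons to make ATP. Most subunits are encoded in the nucleus, and a small number, among them the catalytic core of complex IV, in mitochondrial DNA. Several complex IV subunits exist as pairs, a form found in liver and most other tissues and a second form known from heart and skeletal muscle, testis or lung. In rat liver, the enzymes of oxidative phosphorylation are known to rise around birth.

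Values are log2 signals, so that a difference of 1 is a doubling. Of the 89 genes, 84 had a mean log2 signal of at least 5 over the 6 arrays and were tested. The other 5, with means from 3.64 to 4.75, were Ndufaf5, a complex I assembly factor, and Cox7b2, Cox8b, Cox8c and Ndufa4l2, forms known from other tissues or from hypoxia. The tested members had means from 5.12 to 11.6, and 48 of the genes had a mean of at least 9. Tests were limma's moderated tests with n = 2 arrays per diet, and a gene with a Benjamini-Hochberg adjusted p below 0.05, over all 10977 tested genes, is said to have been called. Levels of different probes are not set against each other.

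The pools differed in ways besides the named diets. Xist, the RNA that coats the inactive X chromosome of females, had signals of 10.67 and 8.34 in control pools, 3.76 and 4.24 under ALA, and 9.46 and 9.51 under SFA. Y-linked Eif2s3y had 3.63 and 7.95 in control pools, 7.74 and 7.80 under ALA, and 4.11 and 3.79 under SFA. The sex makeup of the pools therefore cannot be told apart from the diets. The summed signal of 6 hepatocyte markers lay between 14.79 and 14.95 on all arrays. Singly, all 6 were higher on ALA than on SFA without overlap, by 0.08 to 0.24, beside 31.4% of all genes. Against control without overlap, 2 were higher and 4 lower on SFA, beside 28.6% and 35.7% of all genes. Of the 6, Tat was called higher on ALA than on control, by 0.66. The summed signal of 8 macrophage markers was 10.5 to 10.7 on control against 11.6 to 12.1 on ALA and SFA, and that of 6 cell cycle genes was 7.55 and 7.69 on control against 8.99 to 10.7. The summed signal of 4 erythroid markers was 7.46 and 8.81 on control, 9.06 and 9.40 on ALA, and 9.61 and 9.50 on SFA, which was highest. The summed signals of endothelial, stellate and megakaryocyte markers were likewise lower on both control arrays than on every other array. Of 5 megakaryocyte markers, 3 on ALA and 4 on SFA were above control without overlap, beside 27% and 28.6% of all genes. Among these 5, Gp9 had only 0.11 on ALA and Itga2b -0.03 on SFA. In whole liver, fewer cells of a type and less RNA per cell cannot be told apart, and the part of cell makeup and sex in the differences below was not tested.

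Only a small number of respiratory genes differed between the diets beyond the spread of the arrays. On the SFA diet, Ndufs4, Ndufc1, Ndufaf4 and Cox7a1 were higher than in control livers and Ndufb2, Ndufa4 and Cox6a2 were lower, by 1.42-fold to 1.68-fold. On the ALA diet, Ndufaf4 was higher, by 1.72-fold. Between the ALA and SFA diets, Cox7a1 differed, by 2.01-fold.

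In counts, 1 of 84 members (1.19%) was called between ALA and control, where 7.93% of all tested genes were called (5.11% higher and 2.82% lower), and it was higher. Between SFA and control 7 members (8.33%) were called, 4 higher and 3 lower, against 13.8% of all genes (6.62% higher and 7.15% lower). Between ALA and SFA 1 member (1.19%) was called, lower on ALA, against 1.53% of all genes (1.09% higher and 0.437% lower). An F test over the 3 diets called 6 members (7.14%), the same 7 without Ndufa4, against 13.5% of all genes. At an unadjusted p below 0.05 the members passing were 7, 18 and 16 in the comparisons of ALA with control, SFA with control and ALA with SFA, or 8.33%, 21.4% and 19% beside 24.7%, 31.9% and 22.4% of all genes. Of the 7 between ALA and control, 3 were higher and 4 lower on ALA, beside 13.4% and 11.4% of all genes. Of the 18 between SFA and control, 14 were higher and 4 lower on SFA, beside 14.1% and 17.8%. Of the 16 between ALA and SFA, 2 were higher and 14 lower on ALA, beside 13.5% and 8.96% of all genes. The share of members called was thus below that of all genes in both comparisons with control. The 2 comparisons with control use the same control arrays and are not independent.

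Differences were small for most members. The log2 difference was within 0.5 of 0 for 79 of the 84 members between ALA and control, for 76 between SFA and control, and for 80 between ALA and SFA. The 95% confidence interval lay within 1 of 0 for 81, 79 and 81 members, but within 0.5 of 0 for 50, 38 and 43 only. The median standard error (SE) was 0.13.

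As a group, the members were slightly higher on the SFA diet. Their median difference between SFA and control was 0.11, with 57 of 84 above 0, where the median of all tested genes was -0.05 and 44.8% were above 0. Both SFA arrays were above both control arrays for 43 members (51.2%) and below both for 14 (16.7%), together 67.9%, against 28.6%, 35.7% and 64.2% of all genes. Between ALA and control the member median was -0.03, with 35 above 0, and that of all genes was -0.01, with 48.3% above 0. The arrays of these diets were apart for 36 members (42.9%, 14 higher and 22 lower on ALA), against 55% of all genes (27% higher and 28% lower). Between ALA and SFA the member median was -0.11, with 25 above 0, and that of all genes was 0.04, with 54.6% above 0. Here 49 members (58.3%) had arrays that did not overlap, 8 higher and 41 lower on ALA, beside 55.8% of all genes (31.4% higher and 24.4% lower). SFA was the diet with the highest mean for 47 members (56%), compared with 29.9% of all genes. In each class of brightness, a larger share of members than of all genes was above 0 between SFA and control. With a mean signal from 9 to 10, 18 of 23 members (78.3%) were above 0, beside 47.6% of all genes of that brightness. The shares were 72% beside 44% for 10 to 14, 63.6% beside 41.8% for 5 to 7, and 56% beside 49% for 7 to 9.

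These shifts were of the size of the gap between duplicate arrays. The median over the members of each array's deviation from the 6-array mean was 0.01 and -0.05 on control, -0.09 and 0.00 on ALA, and 0.10 and 0.06 on SFA. Both SFA arrays were thus the highest, and control and ALA overlapped. ALA replicate 1 held the lowest value of 29 members (34.5%, beside 11% of all genes), and SFA replicate 1 held the highest of 27 (32.1%, beside 15.7%). ALA replicate 1 was below replicate 2 by a median of 0.10 over the members. Without ALA replicate 1, the median difference between ALA and SFA was -0.059, and without ALA replicate 2 it was -0.18.

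**Figure D1:**
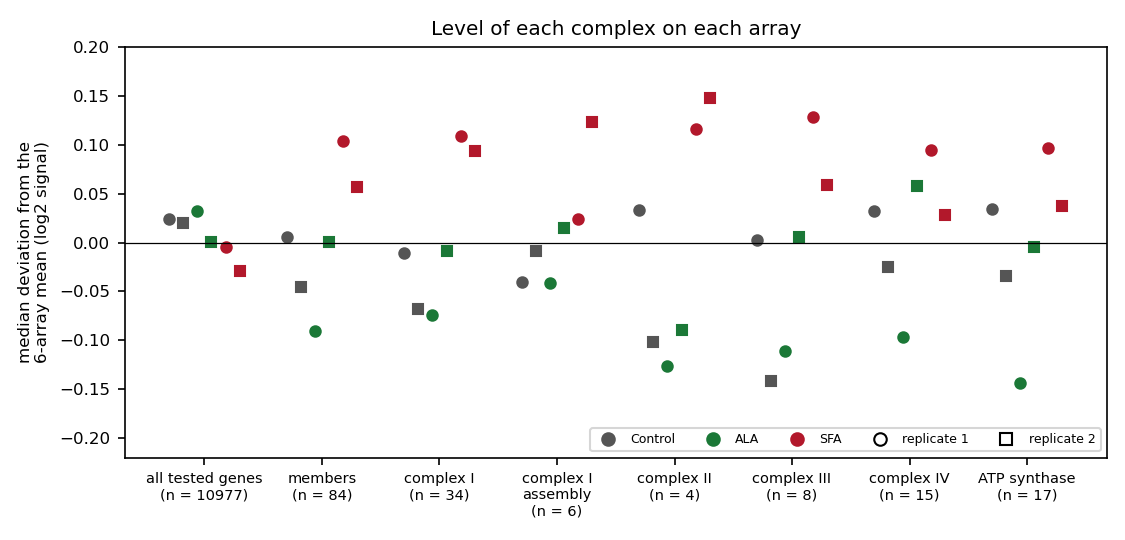
Median deviation from the 6-array mean (log2 signal, vertical axis) on each array, for all tested genes, the members and each complex, with circles for replicate 1 and squares for replicate 2. The SFA arrays lie at 0.10 and 0.06 over the members, above the control and ALA arrays, which range from -0.09 to 0.01.

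By complex, the median difference between SFA and control was above 0 for all 6 groups. It was 0.13 for complex I, 0.13 for its assembly factors, 0.17 for complex II, 0.20 for complex III, 0.07 for complex IV and 0.08 for the ATP synthase. Between ALA and control the medians lay between -0.09 for complex IV and 0.07 for the assembly factors, and those of complexes I and III changed sign with quantile normalization. Between ALA and SFA they were -0.14, -0.07, -0.22, -0.12, -0.04 and -0.13 in the same order. The median deviations of both SFA arrays were above those of the other 4 arrays in every group but complex IV, where SFA replicate 2 was below ALA replicate 2 and control replicate 1. For the ATP synthase the gap was small, with 0.04 on SFA replicate 2 and 0.03 on control replicate 1.

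**Figure D2:**
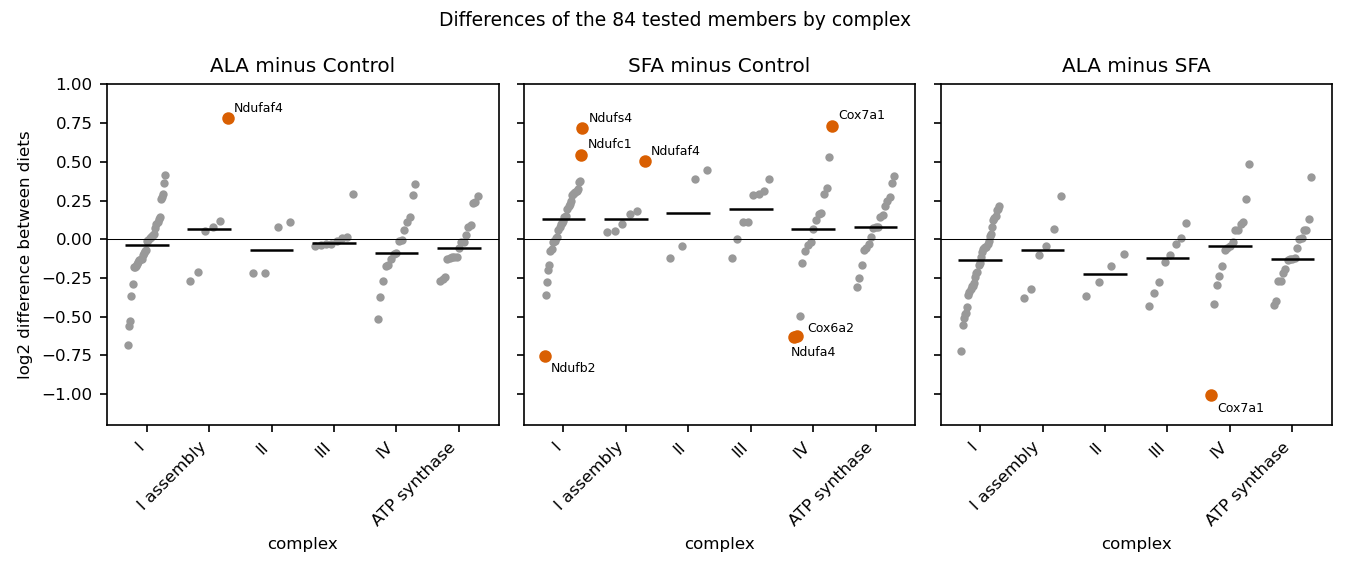
Log2 difference of each of the 84 tested members (points, vertical axis) by complex in the 3 comparisons (ALA and SFA against control, and ALA against SFA), with a bar at the median of each group and the called members named in orange. The called members lie between -1.01 and 0.78, and most grey points lie nearer to 0. Some grey points lie as far out as called ones. Among them are Ndufs4 at -0.72 between ALA and SFA and Ndufa5 at -0.69 between ALA and control.

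Sdha, which was not called in any comparison, was added to the 6 called genes with an entry in the RefSeq promoter table (mouse build GRCm38.p6). Shown for these genes are the stretches of 150 bases upstream of the transcription start. They are written 5′ to 3′ on the strand of the gene, in lower case, with matches in capitals to the letters bound by NRF1 (GCGCA, any base, then GCGC), a factor known for activating respiratory genes, or to any of 3 further motifs. These are the ETS motif CCGGAAG of GABPA, the YY1 motif AAGATGGCG and the ERR motif TCAAGGTCA, all searched on both strands. The stretches are chr13:114388095-114388244 (minus strand) for Ndufs4, chr3:51408956-51409105 (minus) for Ndufc1, chr4:24897933-24898082 (plus) for Ndufaf4, chr7:30184021-30184170 (plus) for Cox7a1, chr6:39592415-39592564 (plus) for Ndufb2, chr6:11907451-11907600 (minus) for Ndufa4 and chr13:74350241-74350390 (minus) for Sdha.
Ndufs4: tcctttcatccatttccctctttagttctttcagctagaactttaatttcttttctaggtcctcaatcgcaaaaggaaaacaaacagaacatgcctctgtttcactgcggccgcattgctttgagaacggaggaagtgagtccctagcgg
Ndufc1: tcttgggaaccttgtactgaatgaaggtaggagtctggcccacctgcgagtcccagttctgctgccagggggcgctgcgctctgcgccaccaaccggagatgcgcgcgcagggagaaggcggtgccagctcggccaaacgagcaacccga
Ndufaf4: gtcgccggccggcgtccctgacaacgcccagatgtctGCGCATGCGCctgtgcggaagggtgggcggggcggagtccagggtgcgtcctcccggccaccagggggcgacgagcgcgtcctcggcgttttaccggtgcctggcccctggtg
Cox7a1: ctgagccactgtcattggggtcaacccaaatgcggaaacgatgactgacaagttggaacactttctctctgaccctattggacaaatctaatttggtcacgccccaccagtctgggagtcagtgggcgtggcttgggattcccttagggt
Ndufb2: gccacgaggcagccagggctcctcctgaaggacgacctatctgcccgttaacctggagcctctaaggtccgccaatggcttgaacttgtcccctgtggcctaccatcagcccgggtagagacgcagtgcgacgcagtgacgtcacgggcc
Ndufa4: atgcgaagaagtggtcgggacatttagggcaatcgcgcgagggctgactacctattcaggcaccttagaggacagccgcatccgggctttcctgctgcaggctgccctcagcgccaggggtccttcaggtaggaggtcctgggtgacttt
Sdha: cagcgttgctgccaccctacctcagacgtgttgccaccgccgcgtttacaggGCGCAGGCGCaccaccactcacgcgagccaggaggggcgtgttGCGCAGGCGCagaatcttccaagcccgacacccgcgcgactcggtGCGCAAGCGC

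Of these, Ndufaf4 has an NRF1 match that begins 113 bases before its start, and the other 5 called genes shown have none of the 4 motifs in the 250 bases before their starts. Sdha, which encodes the flavoprotein of complex II and was not called in any comparison, has 3 NRF1 matches. Among the 73 members with a promoter in the table, 13 (17.8%) held the NRF1 letters within 250 bases upstream, where 5.84% of 17492 protein-coding genes did. The ETS letters were in 13 members (17.8%), beside 10.2% of all genes, and at least 1 of these 2 motifs was in 23 (31.5%), beside 15%. The YY1 and ERR letters were in 1 member each (1.37%), beside 0.84% and 0.36% of all genes. A match describes these letters and does not show binding.

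Complex I takes electrons from NADH. Of its 34 subunits 0 were called by limma between ALA and control, beside 7.93% of all genes. At an unadjusted p below 0.05, 2 were higher and 3 lower on ALA, beside 13.4% and 11.4% of all genes. Between SFA and control, 2 were called higher and 1 lower, beside 6.62% and 7.15% of all genes.

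Ndufs4 encodes an accessory subunit of the NADH-oxidising arm, whose loss is known as a mouse model of Leigh syndrome. Its log2 signal was 9.34 and 9.21 on control, 9.37 and 9.17 on ALA, and 9.996 and 9.989 on SFA. Both SFA arrays were above the other 4, among which control and ALA overlapped. The difference between SFA and control was 0.72 (SE 0.13, adjusted p = 0.018 by limma), or 1.65-fold (95% confidence interval 1.33 to 2.04). That between ALA and SFA was -0.72 and missed the threshold (adjusted p = 0.0522 by limma).

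Ndufc1 encodes a small accessory subunit of the membrane arm. It was at 8.49 and 8.47 on control, 8.62 and 8.49 on ALA, and 9.03 and 9.03 on SFA. Again the SFA arrays stood above all others. It rose by 0.55 on SFA (SE 0.12, adjusted p = 0.030 by limma), or 1.46-fold (1.2 to 1.78). A second probe gave 0.45 for SFA minus control, while for ALA minus control the probes gave 0.07 and -0.32.

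Ndufb2, an accessory subunit gene of the far end of the membrane arm, went the other way. It was at 7.51 and 7.35 on control, 6.71 and 7.03 on ALA, and 6.57 and 6.78 on SFA. Both control arrays were the highest, and ALA and SFA overlapped. It fell by 0.75 on SFA (SE 0.16, adjusted p = 0.0281 by limma), or 1.68-fold (1.30 to 2.19), and the difference of -0.56 on ALA was not called (adjusted p = 0.0794).

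Ndufa5, an accessory subunit gene of the peripheral arm, had the lowest difference among the members between ALA and control. Its signal was 7.55 and 7.37 on control, 6.63 and 6.91 on ALA, and 6.93 and 7.26 on SFA. The control arrays were the highest of the 6. The difference between ALA and control was -0.69 and was not called (SE 0.17, adjusted p = 0.0548 by limma). Ndufa11, a membrane arm gene, had the highest among complex I subunits, 0.41 (adjusted p = 0.0888), but a second probe gave -0.06. Ndufs5, also of the membrane arm, was at 6.86 and 6.78 on control, 7.05 and 7.32 on ALA, and 7.09 and 7.12 on SFA, a difference of 0.37 between ALA and control that was not called.

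Further complex I subunits named by the size of their differences were not called. Ndufa2, of the NADH-oxidising arm, had 0.38 between SFA and control and -0.55 between ALA and SFA, neither of them called (adjusted p = 0.221 and 0.154 by limma). Ndufs6 and Ndufb9, of the peripheral and membrane arms, had -0.51 and -0.48 between ALA and SFA (adjusted p = 0.121 and 0.123). Ndufb10, of the membrane arm, had the highest difference in complex I between ALA and SFA, 0.21. The 6 core subunits measured, those of the arm that takes up and passes on the electrons, had differences between -0.06 for Ndufs1 and 0.33 for Ndufs8 between SFA and control, with a median of 0.20. Limma called 0 of them, beside 13.8% of all genes. Ndufs3 was higher at an unadjusted p below 0.05, beside 14.1% of all genes. These core genes are named after their values were seen. All 6 were lower on ALA than on SFA, by 0.01 to 0.30. The arrays did not overlap for 3 of them, where 24.4% of all genes were lower on ALA without overlap. The 28 accessory subunits had a median of 0.13 between SFA and control, with 19 above 0.

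Of the 6 assembly factors tested, Ndufaf4 stood apart. Ndufaf4 is known to act in building the arm of complex I that binds ubiquinone. It was at 6.57 and 6.57 on control, 7.30 and 7.41 on ALA, and 7.02 and 7.14 on SFA. The arrays of the 3 diets did not overlap, with control lowest and ALA highest. It rose by 0.78 on ALA (SE 0.12, adjusted p = 0.0144 by limma), or 1.72-fold (1.41 to 2.10), and by 0.51 on SFA (adjusted p = 0.0387), or 1.42-fold (1.16 to 1.73). The SFA call was lost with no signal minimum and with the replicate number as a block. Its adjusted p by limma ranged from 0.0263 to 0.169 over all alternatives. The difference between ALA and SFA, 0.28, was not called (adjusted p = 0.234).

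The other assembly factors had differences from -0.27 for Ndufaf7, which methylates a core subunit, to 0.12 for Ndufaf3 between ALA and control. Ndufaf3 is known as a partner of Ndufaf4, and it was at 7.13 and 7.20 on control, 7.39 and 7.17 on ALA, and 7.25 and 7.18 on SFA. Its diets overlapped. Ndufaf1, which acts on the membrane arm, had the lowest difference between ALA and SFA, -0.38 (adjusted p = 0.225 by limma). Ndufaf2, an early-described assembly factor, had 0.18 between SFA and control (adjusted p = 0.421).

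Complex II oxidises succinate and is also an enzyme of the citric acid cycle. Limma called 0 of its 4 genes in any comparison. Of all genes, 7.93% were called between ALA and control, 13.8% between SFA and control and 1.53% between ALA and SFA. At an unadjusted p below 0.05, Sdhb and Sdhd were higher on SFA than on control, beside 14.1% of all genes. Sdhd was also lower on ALA than on SFA at that p, beside 8.96%. Sdhd, a membrane anchor, was at 9.46 and 9.30 on control, 9.46 and 9.46 on ALA, and 9.81 and 9.84 on SFA. Sdhb, the iron-sulfur subunit, was at 9.45 and 9.40 on control, 9.43 and 9.64 on ALA, and 9.76 and 9.86 on SFA. For both, SFA was above the other 4 arrays, with differences from control of 0.45 (adjusted p = 0.0542) and 0.39 (adjusted p = 0.0928). Sdha, the flavoprotein, and Sdhc, the second anchor, had differences of -0.05 and -0.12. For all 4 genes both ALA arrays were below both SFA arrays, beside 24.4% of all genes.

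Complex III passes electrons from ubiquinol to cytochrome c. Limma called 0 of its 8 genes in any comparison, beside 1.53% to 13.8% of all genes. At an unadjusted p below 0.05, 2 were higher between SFA and control, beside 14.1% of all genes. Uqcrb, which encodes the ubiquinone-binding small subunit, was at 10.71 and 10.63 on control, 10.66 and 10.61 on ALA, and 11.09 and 11.03 on SFA. Its SFA arrays were the highest, and 3 probes for it gave 0.39, 0.34 and 0.44 between SFA and control. The used probe had an SE of 0.12 and an adjusted p of 0.0727 by limma. Uqcrh, the hinge protein gene, was at 9.93 and 9.74 on control, 9.83 and 9.76 on ALA, and 10.11 and 10.17 on SFA, also with SFA highest, and was not called (adjusted p = 0.145).

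Uqcrfs1, the Rieske iron-sulfur subunit gene, had a difference of 0.29 between SFA and control (adjusted p = 0.245 by limma). Uqcr10, which encodes a small subunit, had signals of 8.58 and 8.37 on control, 8.36 and 9.16 on ALA, and 8.81 and 8.70 on SFA. Its ALA arrays were further apart than those of any other complex III gene. Uqcr11 and Uqcrq, small subunits too, were at -0.00 and -0.12 between SFA and control. For 0 of the 8 genes did ALA and control arrays separate, beside 55% of all genes.

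Complex IV reduces oxygen to water. Of its 15 tested members, 3 were called between SFA and control, 1 higher and 2 lower. Of all genes, 6.62% were called higher and 7.15% lower there. Limma called 0 between ALA and control, beside 7.93% of all genes, with 1 lower at an unadjusted p below 0.05, beside 11.4%. Ndufa4 is known to be a complex IV subunit although it was first named for complex I. It was at 9.70 and 9.78 on control, 9.15 and 9.57 on ALA, and 9.09 and 9.11 on SFA. The diets did not overlap, with control highest and SFA lowest. It fell by 0.63 on SFA (SE 0.16, adjusted p = 0.0444 by limma), or 1.55-fold (1.19 to 2.02), and the difference of -0.37 on ALA was not called (adjusted p = 0.21). With 75th percentile centring or quantile normalization Ndufa4 was no longer called.

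Cox7a1 encodes the form of subunit 7a known from heart, skeletal muscle and brown fat. It was at 5.36 and 5.37 on control, 4.97 and 5.22 on ALA, and 6.06 and 6.14 on SFA. The diets did not overlap, SFA was highest and ALA lowest, and all values were near the minimum of 5 for testing. It rose by 0.73 on SFA against control (SE 0.13, adjusted p = 0.018 by limma), or 1.66-fold (1.33 to 2.07). Between ALA and SFA the difference was -1.01 (SE 0.13, adjusted p = 0.0392), or 2.01-fold lower on ALA (1.61 to 2.5), and between ALA and control it was -0.27 (adjusted p = 0.267). Cox7a2, the form known from liver, was at 8.88 and 9.06 on control, 8.88 and 8.82 on ALA, and 9.26 and 9.27 on SFA, with SFA highest and no call (0.29, adjusted p = 0.158).

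Cox6a2 is the heart and muscle form of subunit 6a. It was at 5.97 and 5.80 on control, 5.43 and 5.31 on ALA, and 5.18 and 5.34 on SFA. Control was above the other 4 arrays, where ALA and SFA overlapped, and these values too were near the minimum. It fell by 0.62 on SFA (SE 0.13, adjusted p = 0.0286 by limma), or 1.54-fold (1.24 to 1.92), and was not called after quantile normalization or cyclic loess. The difference on ALA was -0.51 (adjusted p = 0.0633). Cox6a1, the form known from liver, was at 9.74 and 9.77 on control, 9.47 and 9.86 on ALA, and 9.73 and 9.47 on SFA, with a difference of -0.15 between SFA and control (adjusted p = 0.57).

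The signal of muscle and brown fat genes on the same arrays stands beside these muscle forms. Acta1, the skeletal muscle actin gene, was at 5.49 and 5.75 on control, 5.47 and 5.50 on ALA, and 6.02 and 5.92 on SFA. Both SFA arrays of Acta1 were above the other 4, as for Cox7a1, with 0.35 between SFA and control and -0.48 between ALA and SFA, neither called (adjusted p = 0.131 and 0.111 by limma). Acta1 was the highest of the 3 muscle markers tested between SFA and control. Their median was 0.01, with 2 above 0 and 1 below. Ckm, the muscle creatine kinase gene, ranged from 4.78 to 5.50, with both ALA arrays below both control arrays and the SFA arrays spanning all others. Myh4, a fast myosin gene, ranged from 3.99 to 4.60 with overlapping diets. Ucp1 and Cidea, which define brown fat, ranged from 3.32 to 3.93, near the low end of the arrays. Elovl3, the third gene of that list, was at 6.02 and 10.12 on control and at 3.52 to 4.50 on the other arrays. The summed signal of 6 muscle markers was 7.54 and 7.59 on control, 7.45 and 7.40 on ALA, and 7.53 and 7.75 on SFA. The part of other tissues in the signal of Cox7a1 and Cox6a2 was not tested.

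The other paired forms were not called. Cox4i1, the general form of subunit 4, was at 9.25 and 9.17 on control, 8.92 and 9.15 on ALA, and 9.36 and 9.30 on SFA, and Cox4i2, known from lung and hypoxia, ranged from 5.23 to 5.52. Cox6b2, known from testis, was at 4.89 and 4.76 on control, 5.03 and 5.34 on ALA, and 5.07 and 5.65 on SFA, a difference of 0.53 between SFA and control (SE 0.21, adjusted p = 0.136 by limma), while general Cox6b1 had 0.17. Control was lowest for Cox6b2, but part of its signal was below the minimum of 5. Cox8a, the general form of subunit 8, had differences of -0.01 and -0.07 from control on ALA and SFA. Muscle Cox8b ranged from 3.77 to 4.19, testis Cox8c from 4.46 to 4.86, testis Cox7b2 from 3.34 to 4.00 and hypoxia-associated Ndufa4l2 from 4.55 to 4.94.

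Cox7a2l, which joins complexes III and IV into supercomplexes and is known to be shortened in C57BL/6 strains, had the highest difference among the members between ALA and SFA. It was at 7.66 and 8.23 on control, 7.84 and 8.04 on ALA, and 7.56 and 7.35 on SFA. Both SFA arrays were the lowest. The difference between SFA and control was -0.49 (SE 0.20, adjusted p = 0.147 by limma) and that between ALA and SFA was 0.49 (adjusted p = 0.217), so that neither was called. A second probe gave -0.52 and 0.51. Cox5a, which encodes a general subunit, was higher on both diets than on control without overlap, by 0.29 on ALA (adjusted p = 0.236) and 0.33 on SFA (adjusted p = 0.139).

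**Figure D3:**
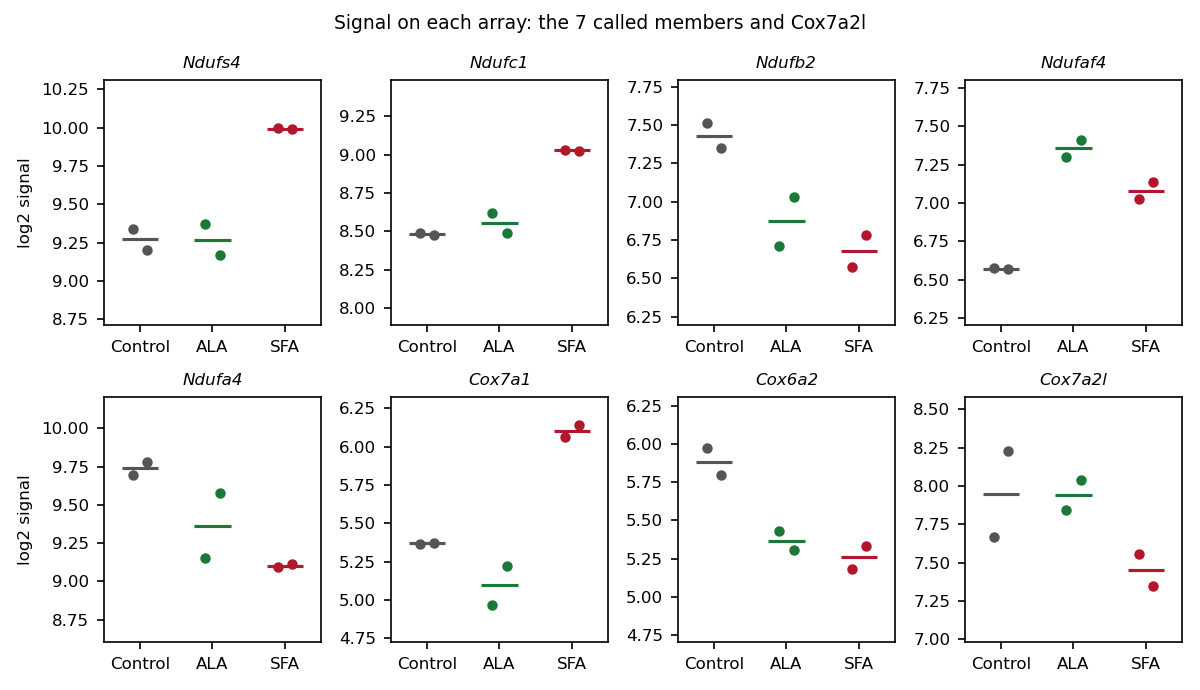
Log2 signal on each array (points) for the 7 called members and Cox7a2l, with a line at the mean of the 2 arrays of each diet. Ndufs4 and Ndufc1 are raised on the SFA arrays alone, whereas Ndufb2 and Cox6a2 are highest on both control arrays and Ndufaf4 is lowest there.

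The ATP synthase had no called member. Limma called 0 of 17 genes in each comparison. Of all genes, 7.93% were called between ALA and control, 13.8% between SFA and control and 1.53% between ALA and SFA. At an unadjusted p below 0.05, 2 members were higher and 0 lower between SFA and control, beside 14.1% and 17.8% of all genes. Between ALA and control 0 members passed, beside 24.7% of all genes. Between ALA and SFA 1 was higher and 2 were lower, beside 13.5% and 8.96%. Atp5pb, the gene of the stalk subunit b, was nearest to a call. It was at 9.68 and 9.61 on control, 9.63 and 9.63 on ALA, and 10.05 and 10.06 on SFA. Both SFA arrays were above the other 4, the difference from control was 0.41 (SE 0.12, adjusted p = 0.0601 by limma), and a second probe gave 0.27.

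The other ATP synthase genes were further from a call. In the catalytic head, Atp5e, the epsilon subunit gene, had the highest difference of the complex between ALA and SFA, 0.41 (adjusted p = 0.214 by limma), and Atp5c1, the gamma subunit gene, was the lowest between ALA and control, -0.27 (adjusted p = 0.211). In the membrane part, Atp5j2, subunit f, was at 9.91 and 9.76 on control, 9.96 and 10.19 on ALA, and 10.22 and 10.18 on SFA, with control lowest and SFA minus control at 0.36 (adjusted p = 0.12). Atp5k, subunit e, had the opposite sign, -0.31 (adjusted p = 0.17), with both control arrays above both SFA arrays.

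The proton-carrying ring of subunit c is encoded by a trio of genes with the same mature protein. Atp5g1, known as the regulated copy, was at 10.90 and 10.75 on control, 11.18 and 11.03 on ALA, and 11.11 and 11.09 on SFA. Control was lowest, and the differences of 0.28 and 0.27 were not called (adjusted p = 0.233 and 0.195 by limma). Atp5g2 had -0.11 and 0.08, and Atp5g3 0.03 and -0.03. Atp5md, a small subunit known as DAPIT, was at 11.12 and 11.08 on control, 10.83 and 10.86 on ALA, and 11.30 and 11.20 on SFA. ALA was lowest and SFA highest for Atp5md, with -0.40 between ALA and SFA on the used probe (adjusted p = 0.12) and -0.24 and -0.28 on the other probes. Atp5l, subunit g, had 6 probes, which gave -0.25 to 0.02 between SFA and control.

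In all, 17 members had more than 1 probe. Probes of such genes may also take up RNA of near-identical copies, so their values are less certain. Of the 84 tested members 3 lie on the X chromosome, Ndufa1, Ndufb11 and Cox7b, grouped here after their values were seen. Ndufa1, an accessory subunit gene, was at 6.75 and 6.64 on control, 5.90 and 6.43 on ALA, and 6.76 and 6.28 on SFA, and its difference between ALA and control, -0.53, was not called (adjusted p = 0.203 by limma). Ndufb11 and Cox7b had -0.10 and 0.14 in that comparison and were not called either.

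Most calls were lost when a single array was left out. With no signal minimum, Ndufc1, Ndufa4, the SFA call of Ndufaf4 and the call of Cox7a1 between ALA and SFA were lost. Without control replicate 2, SFA replicate 1 or SFA replicate 2, 0 of the 7 members were called between SFA and control, and without control replicate 1 only Ndufs4 was. Ndufaf4 was not called between ALA and control without control replicate 1, control replicate 2 or ALA replicate 2, and Cox7a1 was not called between ALA and SFA without any 1 of the 6 arrays. All 9 differences kept their sign in every alternative run. Over these alternatives Ndufs4 ranged from 0.65 to 0.81 (adjusted p from 0.00464 to 0.0949 by limma), Cox7a1 against control from 0.69 to 0.88 (0.00885 to 0.0986) and Ndufaf4 on ALA from 0.73 to 0.84 (0.00686 to 0.070).

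Of 2 mitochondrially encoded subunits on the array, limma called 0, with 0 at an unadjusted p below 0.05. Across the comparisons, 1.53% to 13.8% of all genes were called, and 22.4% to 31.9% passed unadjusted. ND3, a complex I subunit, was at 11.27 and 11.47 on control, 11.19 and 11.44 on ALA, and 11.44 and 11.26 on SFA. COX2, a catalytic subunit of complex IV, was at 11.81 and 12.04 on control, 11.95 and 12.03 on ALA, and 11.94 and 11.83 on SFA. Control overlapped both other diets for both genes, and their differences from control lay between -0.06 and 0.06, with adjusted p from 0.818 to 0.934 by limma. 

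Among 27 carriers and further chain genes, 1 was called higher on ALA, and 3 higher and 1 lower on SFA, against control. Of all genes, 5.11% were called higher on ALA, and 6.62% higher and 7.15% lower on SFA. Slc25a4 encodes the adenine nucleotide carrier known from heart and muscle, which exchanges ATP for ADP across the inner membrane. It was at 6.16 and 5.66 on control, 7.70 and 8.07 on ALA, and 8.15 and 7.98 on SFA. Control was far below both diets, with differences of 1.98 (SE 0.20, adjusted p = 0.00474 by limma) and 2.15 (SE 0.20, adjusted p = 0.00302). Both calls passed in 15 of 15 alternatives. Slc25a5, the carrier form of proliferating tissues, named after its values were seen, had 0.28 and 0.40 and was not called.

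Slc25a11, the oxoglutarate carrier gene of the malate shuttle, was at 9.11 and 8.85 on control, 9.46 and 9.40 on ALA, and 9.69 and 9.75 on SFA. Atpif1, whose protein keeps the ATP synthase from running backwards, was at 9.79 and 9.78 on control, 10.04 and 10.40 on ALA, and 10.41 and 10.41 on SFA. Control was lowest for both, and SFA was called against control, at 0.74 for Slc25a11 (adjusted p = 0.0178 by limma) and 0.63 for Atpif1 (adjusted p = 0.0376). Pdss2, which makes the side chain of ubiquinone, fell by 0.62 on SFA (adjusted p = 0.043). Sqor, which feeds electrons from sulfide into ubiquinone, had -0.45 on ALA, and Coq8a and Coq5 of ubiquinone synthesis had -0.74 and -0.59 between ALA and SFA, none of them called (adjusted p = 0.0773, 0.0536 and 0.104).

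Of 38 tested assembly factors outside the named families, 1 was called higher on ALA, and 3 higher and 1 lower on SFA. The shares of all genes were 5.11% higher on ALA, and 6.62% higher and 7.15% lower on SFA. Coa6, which helps to deliver copper to complex IV, was at 5.66 and 6.06 on control, 7.07 and 6.88 on ALA, and 6.35 and 6.58 on SFA. The diets did not overlap, and Coa6 rose by 1.11 on ALA (SE 0.17, adjusted p = 0.0149 by limma), with 0.60 on SFA (adjusted p = 0.0654). On SFA the complex IV factors Coa7 and Cox11 rose by 0.85 and 0.72 (adjusted p = 0.0181 and 0.0356), and Foxred1, a complex I factor, rose by 0.82 (adjusted p = 0.0157). Ttc19, a complex III factor, fell by 0.57 on SFA (adjusted p = 0.0465). Uqcc2, also of complex III, was at -0.66 between ALA and SFA and was not called (adjusted p = 0.0874).

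Genes of pyruvate dehydrogenase and the citric acid cycle feed electrons into the chain. Of 22 such genes tested, limma called 2 higher on ALA and 4 on SFA, beside 5.11% and 6.62% of all genes, and 0 lower in both (at an unadjusted p below 0.05, 2 were lower on ALA and 0 on SFA). Pdp1, the phosphatase that activates pyruvate dehydrogenase, was at 5.55 and 5.66 on control, 6.10 and 6.16 on ALA, and 6.604 and 6.494 on SFA. The diets did not overlap, and Pdp1 rose by 0.53 on ALA (adjusted p = 0.046) and 0.94 on SFA (adjusted p = 0.00659). Pdk4, a kinase that inactivates the same complex, was at 7.51 and 6.04 on control, 7.78 and 8.47 on ALA, and 8.80 and 8.65 on SFA. Its control arrays were far apart, and it rose by 1.95 on SFA (SE 0.45, adjusted p = 0.0347). This difference was 2.68 without control replicate 1 and 1.21, not called, without control replicate 2. The difference for Pdk4, ALA minus control, was 1.35 and not called (adjusted p = 0.12), but it was 2.08 and called without control replicate 1.

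Pdk2, a further such kinase, and Idh2, the NADP-linked isocitrate dehydrogenase of mitochondria, rose on SFA by 0.60 (adjusted p = 0.0292 by limma) and 0.86 (adjusted p = 0.0329). Idh3a, of the NAD-linked enzyme of the cycle, rose on ALA by 0.68 (adjusted p = 0.035). Dlat, the acetyltransferase core of pyruvate dehydrogenase, was at -0.67 between ALA and SFA and was not called (adjusted p = 0.0568).

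Of 26 tested regulators of respiratory genes and mitochondrial DNA, 1 was called higher on ALA, and 1 higher and 1 lower on SFA. Beside these stand 5.11% of all genes called higher on ALA, and 6.62% higher and 7.15% lower on SFA. Ppargc1a encodes PGC-1alpha, a coactivator known for raising respiratory gene expression and gluconeogenesis. It was at 7.07 and 7.04 on control, 8.36 and 9.01 on ALA, and 8.02 and 8.17 on SFA. The diets did not overlap, with control lowest and ALA highest, and the differences from control were 1.63 (SE 0.21, adjusted p = 0.00834 by limma) and 1.04 (SE 0.21, adjusted p = 0.0251). On the same arrays, the median over the respiratory members was -0.03 on ALA and 0.11 on SFA.

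Sirt3, the mitochondrial deacetylase gene, fell by 0.64 on SFA (adjusted p = 0.0382 by limma). Pprc1, a relative of Ppargc1a, was at 0.46 on ALA and Yy1 at -0.52 between ALA and SFA, neither called (adjusted p = 0.304 and 0.119). Tfam, Nrf1 and Esrra, which act downstream of PGC-1alpha and were named after their values were seen, had -0.01, -0.25 and 0.17 on ALA and were not called. Limma called 0 genes of these 4 lists between ALA and SFA, beside 1.53% of all genes. At an unadjusted p below 0.05 there were 2 higher and 5 lower carriers and 2 and 7 assembly factors. Genes of the cycle numbered 1 and 3, and regulators 1 and 2. Of all genes, 13.5% were higher and 8.96% lower on ALA at that unadjusted p.

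Apart from Slc25a4, each call in these lists was lost when at least 1 of the 6 arrays was left out. Without control replicate 2, Ppargc1a had an adjusted p of 0.0527 on ALA by limma, and without SFA replicate 1, Pdp1 had 0.0523 on SFA, the only losses of these 2 calls. With other processing and all arrays kept, Ttc19 was lost with no signal minimum, each of the 3 rescalings, only the compared diets fitted and the replicate block, and passed in 3 of 15 alternatives. Pdss2 was lost with no signal minimum, each rescaling and the block, and passed in 5 of 14. Pdp1 on ALA and Idh3a were lost with no signal minimum, with only the compared diets fitted and with the block, and Pdp1 also with the trend. Sirt3 was lost with no signal minimum, centring and the block, Atpif1 with no signal minimum and the block, and Idh2 with the block. Cox11 and Pdk2 were lost with no signal minimum, and Cox11 and Pdk4 with only the compared diets fitted, Pdk4 also with the trend. The adjusted p of the remaining calls rose to between 0.0681 and 0.201 in the alternative least in their favour.

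**Figure D4:**
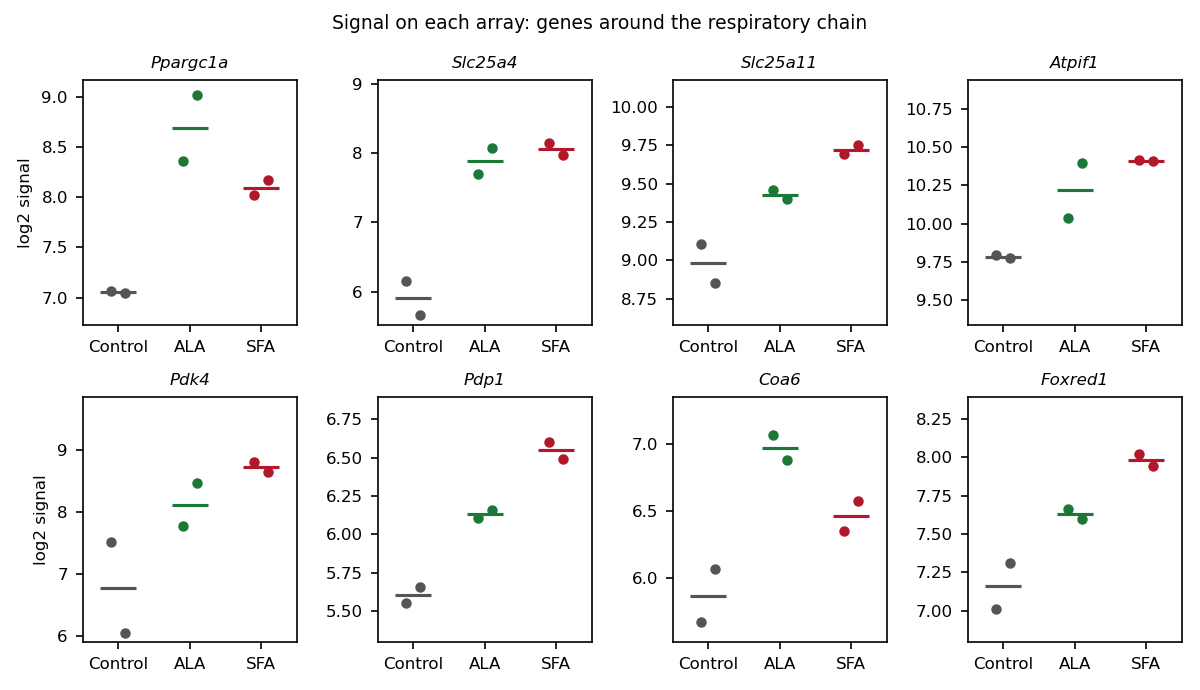
Log2 signal on each array (points, panels differ in their vertical range) for 8 genes around the respiratory chain, with a line at the mean of the 2 arrays of each diet. The 8 genes are a selection, and both control arrays are the lowest for each of them. Pdss2, Sirt3 and Ttc19, which were called lower on SFA than on control, are not shown. Ppargc1a and Coa6 are highest on ALA and the other genes have their highest mean on SFA.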

How the data were processed

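Liver RNA was measured on 6 Affymetrix arrays, 2 per maternal diet, grouped by the sample titles. The authors' deposited signals, which run from 1.98 to 13.1, were read as log2. They were made with RMA and Partek 6.6, per the submitters' processing notes, and no further scaling was applied. Annotation of the 35556 probes came from the platform table: 21789 name 1 gene, 1621 several and 12146 none, and the last 2 kinds were not used. Members matched RefSeq (GRCm38.p6) by Entrez identifier in 89 of 89 cases. Tests used R 4.3.3 and limma 3.58.1 with a mean per diet over all 6 arrays (3 residual degrees of freedom), default empirical Bayes settings and two-sided p-values, and were run on simulated data first. The number of arrays limits the precision.

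The members, lists, tests and alternatives were chosen with earlier results of these data known. Named members are those called, the 2 with the largest difference in each direction, complex and comparison, and the paired forms. Ndufs6 and Ndufb9 were named outside this rule, as were the core subunits of complex I, Ndufa1 and Ndufb11. Of the lists, called genes and the 2 largest differences in each comparison are named. Alternatives covered the signal minimum, scaling, probe choice, empirical Bayes settings, the arrays in the fit, a replicate block and leaving out each array. Their results stand in the closing section.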

Additional observations from a re-analysis of the deposited data

How the results depend on the processing

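The number of members called depended on settings of the test, while the sign of every called member did not. With no signal minimum, 4 members were called between SFA and control, 0 between ALA and SFA and 3 by the F test. With a minimum of 6, 2 were called between ALA and control, Ndufa5 being added. With a trend and robust empirical Bayes, 2, 11 and 6 members were called between ALA and control, SFA and control, and ALA and SFA, and 11 by the F test. The added members between SFA and control were Sdhb, Sdhd, Uqcrb and Atp5pb. With only the 2 diets compared in the fit, 0 members were called between ALA and SFA. With 75th percentile centring, 2 members were called between ALA and SFA, and the member medians were 0.21 for SFA minus control and -0.22 for ALA minus SFA.

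Centring moved the median of all genes between ALA and SFA by -0.11, and by its construction left the members unmoved relative to all genes. That relative median between ALA and SFA was -0.15, but -0.037 with quantile normalization and -0.062 with cyclic loess, and between SFA and control it was 0.16, but 0.11 and 0.094. Centring also changed the split of all calls between SFA and control, from 727 higher and 785 lower to 1004 and 515, and that of the member calls from 4 and 3 to 7 and 2. Quantile normalization and cyclic loess gave 967 and 528 and 957 and 586 for all genes. The member median between ALA and control was 0.00 with quantile normalization. Of all genes, 168 were called between ALA and SFA, but 32 with no signal minimum, 293 with a minimum of 6, 100 with centring, 68 with quantile normalization, 76 with cyclic loess, 421 with the trend, 11 with those diets alone in the fit and 0 with the replicate block. Between ALA and control 871 were called, and 448 with those diets alone.

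The limits of the data are 2 pools a diet, an unknown origin of the pools, and sex and cell makeup that differ between the diets. Replicate numbers are shared between the diets, but the deviations of arrays with the same number correlated at -0.03, -0.00 and 0.02. These values show no deviation shared over the tested genes, but cannot tell whether the pools with the same number were paired. A fit with the replicate number as a block called 1, 6 and 0 members in the 3 comparisons and 3 by the F test. Leaving out 1 array gave 0 to 1 members called between ALA and control, 0 to 7 between SFA and control, 0 between ALA and SFA, and 0 to 3 by the F test. The member median then ranged from -0.07 to 0.01, from 0.08 to 0.14 and from -0.18 to -0.059 in the same order. Where an array is left out, its partner is assumed to vary like the other diets. Counting Ndufa4 with complex I, chosen after seeing the data, left the medians of complexes I and IV within the spread of duplicate arrays. The cause of these changes was not tested.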
